A study of Mus musculus with 3 samples.

Results

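Regulators of G protein signalling (RGS proteins) switch off the signals of G protein-coupled receptors, and the genes described here are 8 of this family: Rgs1, Rgs2, Rgs3, Rgs10, Rgs14, Rgs16, Rgs18 and Rgs19. The family was chosen by the large difference in Rgs1 between the arrays with intralipid, so the values of Rgs1 are given as a description. The platform annotation gave 7 of the 8 a probe set of their own, out of 19938 genes with 1 symbol, and Rgs10 was not analysed here. All 7 lay above the expression floor on each of the 3 arrays, where the floor is the median log2 value of the probe sets with 1 gene symbol on that array (5.00 under PBS, 4.98 under intralipid and 4.99 under intralipid plus ANGPTL4).

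The cells were peritoneal macrophages from male Angptl4-/- mice of the C57Bl/6 strain, elicited with 4% thioglycollate, a sterile irritant, for 3 days and held in culture for 2 days. All 3 groups carried the deletion, and no array of wild-type cells was analysed here. Cells were given PBS, intralipid (a triglyceride emulsion, at 0.5 mM triglyceride) for 6 h, or the same intralipid after 1.5 h with 2.5 µg/mL recombinant mouse ANGPTL4, a secreted inhibitor of lipoprotein lipase. No array had ANGPTL4 without intralipid, so "ANGPTL4 against PBS" below means intralipid plus ANGPTL4 against PBS. A difference in that comparison cannot be assigned to the lipid or to the protein. Whether cells without the protein also went through a mock pre-incubation is not stated in the labels. Each group was 1 Affymetrix array that carried RNA pooled from 3 samples. The spread between cultures is therefore unknown, no test was possible, no p-value is given, and "higher" and "lower" describe these arrays.

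A receptor bound by its ligand loads GTP onto a G alpha subunit, which then parts from the beta and gamma subunits, and both parts signal. RGS proteins speed the hydrolysis of that GTP and so shorten the signal. Rgs1, Rgs2, Rgs3, Rgs16 and Rgs18 belong to the subfamily of mostly small proteins with little beside the RGS domain, Rgs14 and Rgs10 to a subfamily that acts on the inhibitory G alpha class, and Rgs19 to one with a cysteine string that anchors it to membranes. In leukocytes the family is known for tuning the response to chemoattractants.

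The members differed in opposite directions between intralipid and PBS. Rgs1 was 8.51-fold higher with intralipid than with PBS and Rgs18 2.51-fold lower, and Rgs19 and Rgs14 were lower by less than 2-fold. With ANGPTL4 before the intralipid, Rgs1, Rgs14 and Rgs19 differed from their PBS level by at most 1.13-fold. Rgs18 and Rgs2 were below it, by 1.77-fold and 1.51-fold.

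**Figure D1:**
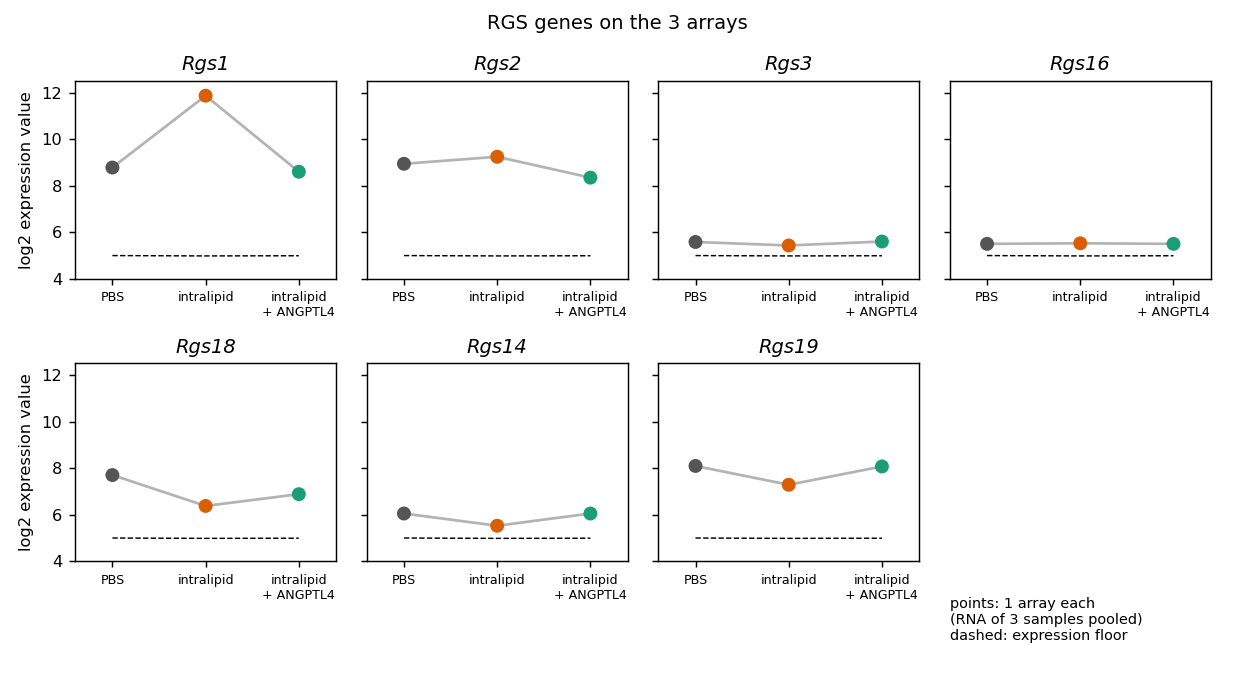
Deposited log2 expression values of the 7 measured RGS genes on the arrays with PBS, intralipid and intralipid plus ANGPTL4, 1 point per array (RNA of 3 samples pooled), with the expression floor dashed. Rgs1 stands out on the intralipid array at 11.87, and Rgs2 is lowest with ANGPTL4 at 8.35. Rgs18, Rgs19, Rgs14 and, by little, Rgs3 are lowest on the intralipid array.

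Rgs1 (probe set 10358408), which restrains signalling from chemokine receptors in lymphocytes and macrophages, had a log2 value of 8.78 under PBS, 11.87 under intralipid and 8.60 under intralipid plus ANGPTL4. The intralipid array alone was high, and the other two differed by -0.18 on the log2 scale. The log2 difference of intralipid from PBS was 3.09, and 17 of the 10018 genes past the floor on either array had a larger one upward. With ANGPTL4 it was 9.64-fold lower than with intralipid alone, a log2 difference of -3.27, and 12 of 10025 genes had a larger one downward. The family was chosen on the large difference in Rgs1, so these ranks are a description only. Of the log2 difference between intralipid and PBS, -5.84% remained with ANGPTL4, the sign meaning that the level was slightly below that with PBS. In bulk RNA, fewer cells of a type and less RNA per cell cannot be told apart.

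Rgs2 (probe set 10358389), which prefers the G alpha q class and lowers its calcium signal, had log2 values of 8.94 under PBS, 9.24 under intralipid and 8.35 under intralipid plus ANGPTL4. The array with ANGPTL4 was the low one, and the other two lay closer together. With ANGPTL4, Rgs2 was 1.86-fold lower than with intralipid and 1.51-fold lower than with PBS, and intralipid was 1.23-fold above PBS. Of 9960 genes, 48 were further below their PBS level with ANGPTL4 than Rgs2, whose log2 difference was -0.60. In size, 2.78% of genes differed at least as much. Downward differences were few in that comparison, with 4 genes at least 2-fold lower and 84 higher, so a rank among them is a description only.

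The stretch before the start of Rgs2 is shown because Rgs2, of the 4 measured members with a promoter window here, was the one with a match to the core of the cyclic AMP response element (TGACG). The 250 bases lie at chr1:144004150-144004399 of GRCm38.p6, on the minus strand, from RefSeq, and end at the base before the start of the gene. Capitals mark the matches to TGACG on either strand.
Rgs2: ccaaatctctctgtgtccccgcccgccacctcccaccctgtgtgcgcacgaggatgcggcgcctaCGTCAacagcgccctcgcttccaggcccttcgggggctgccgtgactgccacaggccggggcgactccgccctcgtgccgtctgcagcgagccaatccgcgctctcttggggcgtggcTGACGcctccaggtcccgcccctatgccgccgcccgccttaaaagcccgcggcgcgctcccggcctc
Both matches are in the window, 1 on each strand, with first bases at -185 and -67 from the start. The core is common, since 20.8% of 32851 promoter windows of the same length (300 bases, 250 before and 50 after the start) held it, so a match is a description of the letters only. The window of Rgs2 held 33 CG pairs, against a median of 7 over all windows. It was not alone in this, since the window of Rgs16 held 22 and those of Rgs19 held 27, 37 and 4. Those of Rgs3 held 4 and 9.

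RefSeq windows were at hand for 4 measured members (Rgs2, Rgs3, Rgs16 and Rgs19), 7 windows in all, because Rgs3 and Rgs19 have several starts. No window held the full cyclic AMP response element (TGACGTCA, in 1.79% of all windows), the AP-1 site (TGANTCA, 7.81%), the ATF4 and C/EBP composite site (TGATGNAAT, 0.965%), the NF-kB consensus (4.51%) or the CArG box of serum response factor (1.63%), each searched on both strands. The full element contains the core. An E-box (CACGTG, in 7.15% of all windows) was found in 1 of the 3 windows of Rgs19, at 10 to 15 bases after that start.

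Rgs18 (probe set 10358421), known from platelets and their precursors, where it limits signals of the G alpha i and q classes, had log2 values of 7.70 under PBS, 6.38 under intralipid and 6.88 under intralipid plus ANGPTL4. Both arrays with intralipid were low, and the one with ANGPTL4 lay between the other two. The log2 difference of intralipid from PBS was -1.33, and 42 of 10018 genes were further down. With ANGPTL4, Rgs18 was 1.42-fold above intralipid alone, and 61.9% of the log2 difference from PBS remained. Of 9960 genes, 12 lay further below PBS with ANGPTL4 than Rgs18, at a log2 difference of -0.82. In size, 1.43% of genes differed at least as much in that comparison, in which 4 genes were at least 2-fold lower and 84 higher.

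Because Rgs18 is known from platelets and Rgs1 from lymphocytes, markers of those cells were read beside them. None of the 7 measured markers of T and NK cells, the 4 of B cells or the 5 of mast cells reached the floor on any array. Their summed linear values ranged from 81.6 to 84.0, from 43.5 to 45.5 and from 38.3 to 38.6 over the arrays. Of 4 measured platelet markers, 1 reached the floor, Pf4, a chemokine of platelet granules, with a log2 value of 8.17 on all 3 arrays. The summed linear value of the 4 was 336 under PBS, 338 under intralipid and 336 under intralipid plus ANGPTL4. Most of that sum is Pf4, identical on the 3 arrays, so the sum could hardly differ. Which cells the Pf4 signal came from was not tested. Itga2b, Gp9 and Ppbp stayed below the floor. Of 5 neutrophil markers, S100a8 reached the floor, at 5.86 on each array, and their sum was 104 on each. All 7 macrophage markers were past the floor, with sums of 21698, 23197 and 23350 in that order of arrays. The sums include Cd14, which was 4.29-fold higher with intralipid than with PBS, at log2 values of 9.07, 11.17 and 10.34. They are therefore not a reading of macrophage content alone. The median log2 value of the 7 was 10.87, 10.81 and 11.12, lowest with intralipid.

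Rgs16 (probe set 10350733), a member often induced in activated leukocytes that acts on the G alpha i and q classes, was close to the floor, with log2 values of 5.50, 5.53 and 5.50 on the arrays with PBS, intralipid and intralipid plus ANGPTL4. The largest difference among its arrays was 0.02 on the log2 scale, so no change was detectable at this signal. Rgs3 (probe set 10607113), another brake on the G alpha i and q classes, was likewise low, at 5.58, 5.43 and 5.60. Its largest difference was 0.17. A second probe set for Rgs3 (10505326) was below the floor on all arrays, at 4.51, 4.48 and 4.48, and differed by at most 0.03 in size.

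Rgs19 (probe set 10490736), an activator of GTP hydrolysis on G alpha i3, had log2 values of 8.10 under PBS, 7.29 under intralipid and 8.07 under intralipid plus ANGPTL4. The intralipid array alone was low. The difference was 1.75-fold downward with intralipid against PBS and 1.72-fold upward with ANGPTL4 against intralipid, both short of 2-fold. In size, 5.91% of all genes past the floor differed at least as much between intralipid and PBS. Rgs14 (probe set 10405432), which also binds Ras and Raf proteins and holds inactive G alpha i, had log2 values of 6.05, 5.52 and 6.05 in that order of arrays. It was 1.44-fold lower with intralipid than on either other array, and its intralipid value was as close to the floor as that of Rgs16. Its PBS and ANGPTL4 values were identical in the deposited table, as were those of Rgs16. Such ties were frequent, in 3990 of the 9960 genes past the floor on either of those arrays.

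**Figure D2:**
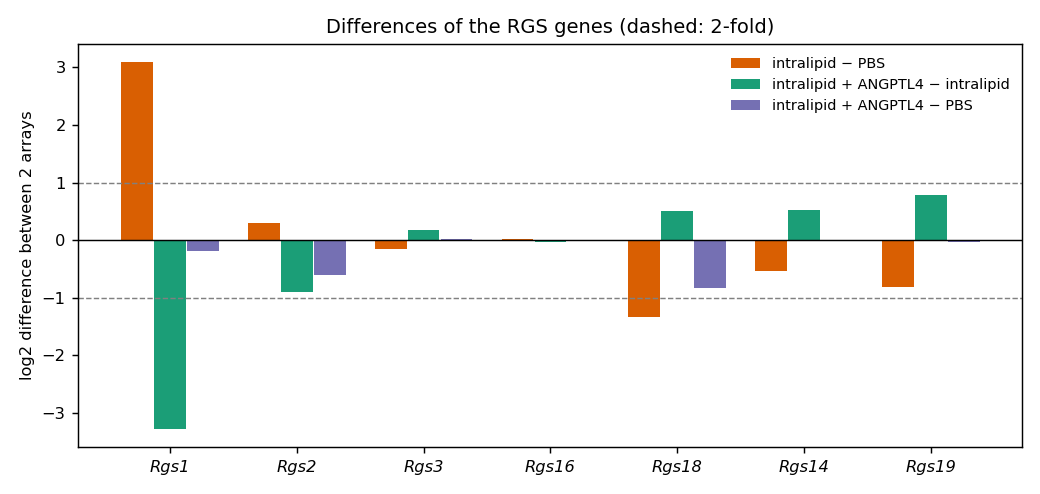
Log2 differences between pairs of arrays for the 7 measured RGS genes, with 2-fold dashed. Rgs1 exceeds 2-fold in both comparisons with the intralipid array and Rgs18 in intralipid against PBS, while Rgs2 and Rgs18 have the largest downward bars for intralipid plus ANGPTL4 against PBS (-0.60 and -0.82).

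Of the 7 members, 1 was at least 2-fold higher with intralipid than with PBS (Rgs1) and 1 at least 2-fold lower (Rgs18). Over all genes past the floor, 2.52% were that much higher and 1.33% lower. With ANGPTL4 against intralipid alone, 1 member was at least 2-fold lower (Rgs1) and 0 higher, beside 2.3% and 2.53% of all genes. With ANGPTL4 against PBS, 0 members were 2-fold apart, where 0.843% of genes were higher and 0.0402% (4 genes) lower. Because the family was chosen on Rgs1, nothing is read from these counts. The median log2 difference of the members was -0.15, 0.17 and -0.02 in the 3 comparisons, and that of all genes past the floor was 0.00 in each. That 0.00 comes from ties. For intralipid against PBS, 4463 of 10018 genes were below 0, 2353 above and 3202 at 0. For ANGPTL4 against intralipid, 4658 of 10025 were above 0, 2313 below and 3054 at 0. The spread of the log2 differences over all genes past the floor, a robust SD from the central 68%, was 0.20, 0.23 and 0.10. The first 2 comparisons share the intralipid array and both comparisons against PBS the PBS array, so their values are not independent.

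The rest of the family lay at or below the floor. Of 16 other RGS genes and RGS anchoring proteins measured, 1 reached it, Rgs9bp, the membrane anchor of Rgs9 in photoreceptors, at 4.98 on all 3 arrays, which is the floor of the intralipid array. Rgs12, the relative of Rgs14, lay just below, at 4.97, 4.97 and 4.94. Rgs4, Rgs5, Rgs6, Rgs7, Rgs8, Rgs9, Rgs11, Rgs13, Rgs17, Rgs20, Rgs21 and Rgs22 were below the floor throughout, as were Rgsl1 and Rgs7bp.

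Rgs1, Rgs2 and Rgs18 lie in 1 run of RGS genes on chromosome 1. In the RefSeq order of protein-coding genes (GRCm38.p6), Rgs2, Rgs13, Rgs1, Rgs21 and Rgs18 follow each other without another coding gene between them. Rgs13, at a log2 value of 2.57, and Rgs21, at 2.33, were below the floor and identical on all arrays. The 3 genes of the run that were above the floor differed between these arrays in 3 ways, with 1 array per group. Rgs1 was high on the array with intralipid alone, and Rgs18 was low on both arrays with intralipid. Rgs2 was low only on the array with both intralipid and ANGPTL4. The differences of Rgs2 (at most 1.86-fold), and that of Rgs18 for ANGPTL4 against PBS (1.77-fold), were short of 2-fold. Uchl5, the coding gene on the far side of Rgs2, was 7.80 on all 3 arrays. Brinp3, beyond Rgs18, was below the floor.

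**Figure D3:**
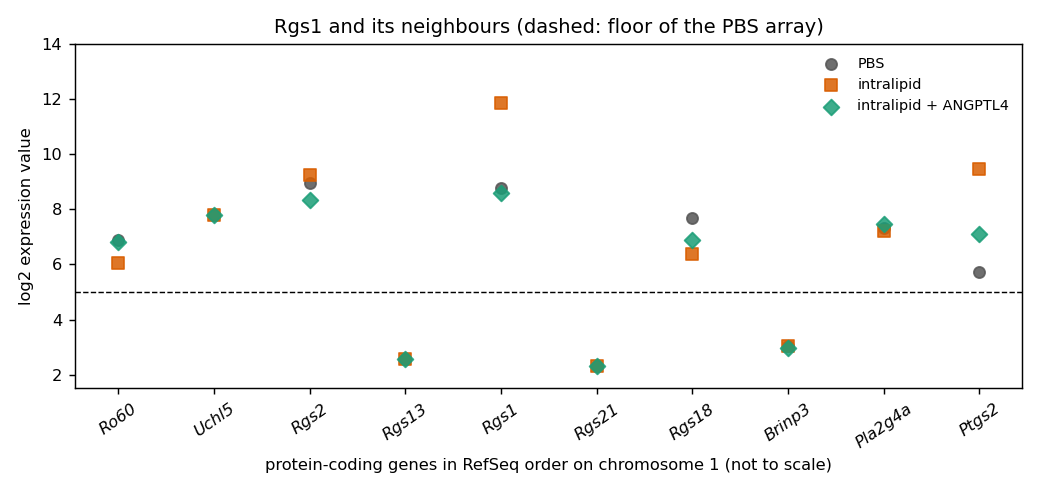
Log2 expression values of protein-coding genes in RefSeq order around Rgs1 on chromosome 1, with 1 symbol per array and the floor of the PBS array dashed. Values are to be compared between arrays within a gene. Rgs1, Rgs18 and Rgs2 differ between arrays in 3 different ways, those of Rgs2 short of 2-fold. Rgs13 and Rgs21 between them are below the floor.

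The genes most like Rgs1 were sought by the Euclidean distance between pairs of log2 differences (intralipid minus PBS, and intralipid plus ANGPTL4 minus intralipid) among 9674 genes. This is a likeness over 3 arrays only. The nearest was Malsu1, an assembly factor of the mitochondrial ribosome, at a distance of 0.17. Then came Nr4a1, an orphan nuclear receptor and immediate early gene (0.19), with log2 values of 5.26, 8.37 and 5.29 on the arrays with PBS, intralipid and intralipid plus ANGPTL4. The histone genes H4c9 (0.21) and H3c4 (0.25) followed, whose family has near-identical copies, so their signal is uncertain. H3c4 was above the floor on the intralipid array only. Csrnp1, a nuclear protein induced by AXIN1, was next at 0.30.

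For Rgs18 the nearest gene was Fgd4, an exchange factor for the GTPase Cdc42, at a distance of 0.07, with log2 values of 8.94, 7.63 and 8.07 in the same order. Prokr1, a prokineticin receptor (0.24), Enc1, an actin-binding protein (0.26), Tent5a, a poly(A) polymerase (0.29), and B4galt6, a lactosylceramide synthase (0.30), came next. All 5 were lower with intralipid than with PBS by log2 differences of -1.08 to -1.31, and above intralipid alone with ANGPTL4 by 0.44 to 0.80.

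The G alpha subunits on which RGS proteins act stayed within 2-fold. Of 12 measured, 7 were past the floor, and 0 were 2-fold apart in any comparison. Over all genes past the floor, 3.84% were 2-fold apart for intralipid against PBS. For ANGPTL4 against intralipid and against PBS, the shares were 4.84% and 0.884%. So 0 of 7 is close to the share of all genes and is not read as a result. The median log2 difference of these 7 was -0.16 for intralipid against PBS, 0.27 for ANGPTL4 against intralipid and 0.12 for ANGPTL4 against PBS. Gnai2, the main inhibitory subunit of leukocytes, had log2 values of 11.32 under PBS, 10.96 under intralipid and 11.23 under intralipid plus ANGPTL4. Gnaq, which drives phospholipase C beta, differed by at most 0.29 in size. Gna13 went the other way, at 10.45, 10.94 and 10.78. Gnai3 and Gna12 differed by at most 0.21 in size. The largest differences for ANGPTL4 against intralipid were those of Gna11 (0.46) and Gna15 (0.45). Gna15 also had the largest for ANGPTL4 against PBS (0.41).

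The beta and gamma subunits had a median log2 difference of 0.00 in each comparison, with 5, 5 and 6 of the 10 past the floor at exactly 0. Of 17 measured, 10 were past the floor and 0 were 2-fold apart, beside 3.84%, 4.84% and 0.884% of all genes in the 3 comparisons. Gnb1, the most used beta subunit, was at 11.59, 11.49 and 11.68 on the arrays with PBS, intralipid and intralipid plus ANGPTL4. Gng2 had the largest difference, -0.48 for ANGPTL4 against intralipid, and Gnb2, Gng5 and Gng12 differed by at most 0.04 in size. Among adenylyl cyclases and phospholipases C beta, the enzymes that G alpha subunits steer, 0 were 2-fold apart and the medians were 0.00. Of 13 measured, 6, 6 and 5 were past the floor in the 3 comparisons. Of these, 4, 3 and 2 had a difference of exactly 0. Beside those shares of all genes, neither count of 0 genes 2-fold apart is read as a result. Adcy3 was at 6.74, 7.27 and 6.63, highest with intralipid, and Adcy7, a cyclase of leukocytes, was at 9.97 on all 3 arrays. Plcb3 was at 6.96, 6.79 and 7.16, and Plcb2 at 6.89, 6.89 and 6.71.

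Receptor kinases and arrestins silence the receptor itself. The 5 of the 6 measured that were past the floor had log2 differences above 0 for ANGPTL4 against intralipid, with a median of 0.49, and 4658 of the 10025 genes past the floor were also above 0, with 2313 below. Only Arrb1, which encodes beta-arrestin 1, reached 2-fold, at 8.19 under PBS, 7.22 under intralipid and 8.28 under intralipid plus ANGPTL4 (2.07-fold). With quantile normalization its log2 difference was 0.99, just short of 2-fold. The share of all genes past the floor called upward for ANGPTL4 against intralipid was 2.53%. With so short a list, 1 call among 5 genes is not read as a result. Grk3 differed by 0.63, Grk6 by 0.49, Grk5 by 0.40 and Arrb2 by 0.24 in the same comparison. Against PBS, intralipid alone was lower in 4 of the 5, with a median of -0.13. In that comparison 4463 of the 10018 genes past the floor were also below 0, with 2353 above.

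Of the 8 genes for proteins with a related RGS-homology domain that were past the floor, 1 was 2-fold apart. Over all genes, 3.84% were 2-fold apart for intralipid against PBS and 4.84% for ANGPTL4 against intralipid. Snx25, a sorting nexin, was at 6.58 under PBS, 5.36 under intralipid and 6.59 under intralipid plus ANGPTL4, 2.32-fold lower with intralipid and 2.35-fold higher again with ANGPTL4. Akap10, an anchor of protein kinase A, was just short of the threshold, with log2 values of 8.35, 7.35 and 8.23. Snx14, another sorting nexin, was at 7.92, 7.44 and 7.79, while Snx13 and Arhgef12 differed by at most 0.12 in size. The median of the 8 genes past the floor was -0.05 for intralipid against PBS and 0.01 for ANGPTL4 against intralipid. Of 6 other modulators of G alpha past the floor, 0 were 2-fold apart. Gpsm2, which binds inactive G alpha i as Rgs14 does, had the largest differences, -0.67 and 0.90. Gpsm3 was at 8.19, 8.06 and 8.13, Ccdc88a at 7.43, 7.39 and 7.79, and Ric8b and Ric8a differed by at most 0.07.

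Receptors upstream of the RGS proteins differed in both directions. Of 29 measured, 23 were past the floor in each of the first 2 comparisons. Between intralipid and PBS, 1 was at least 2-fold higher and 3 lower, beside 2.52% and 1.33% of all genes past the floor. Between ANGPTL4 and intralipid, 4 were higher and 1 lower, beside 2.53% and 2.3% of all genes. Ccr1, a chemokine receptor, had log2 values of 7.41 under PBS, 9.38 under intralipid and 7.17 under intralipid plus ANGPTL4. It was 3.94-fold higher with intralipid than with PBS and 4.65-fold lower with ANGPTL4 than without, so its intralipid array stood above the other two, as for Rgs1.

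P2ry6, Ptger4 and Cx3cr1 were 2-fold apart the other way in both comparisons. P2ry6, which binds UDP, was at 9.62, 8.57 and 9.70 on the arrays with PBS, intralipid and intralipid plus ANGPTL4. Ptger4, a prostaglandin E2 receptor, was at 7.12, 6.12 and 7.79, and so 3.19-fold above intralipid alone once ANGPTL4 was given. Its log2 difference of intralipid from PBS was -1.01, and -0.99 with cyclic loess, just short of 2-fold. Cx3cr1, the fractalkine receptor, was at 6.01, 4.97 and 6.89, and its intralipid value lay below the floor. Against the floor its difference was 2.03-fold downward with intralipid and 3.75-fold upward with ANGPTL4. Ptgir, the prostacyclin receptor, was at 7.22, 6.90 and 8.01, 2-fold apart in the comparison of ANGPTL4 with intralipid only. Among the others, C3ar1, the receptor for complement C3a, was at 12.35, 12.07 and 12.18, C5ar1, the receptor for complement C5a, at 9.54, 9.77 and 9.90, Cxcr4 at 11.78, 12.54 and 11.95, and Ptafr, which binds platelet-activating factor, at 10.78, 10.37 and 11.16. The median of the receptors was -0.11 for intralipid against PBS, 0.13 for ANGPTL4 against intralipid and 0.00 for ANGPTL4 against PBS.

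**Figure D4:**
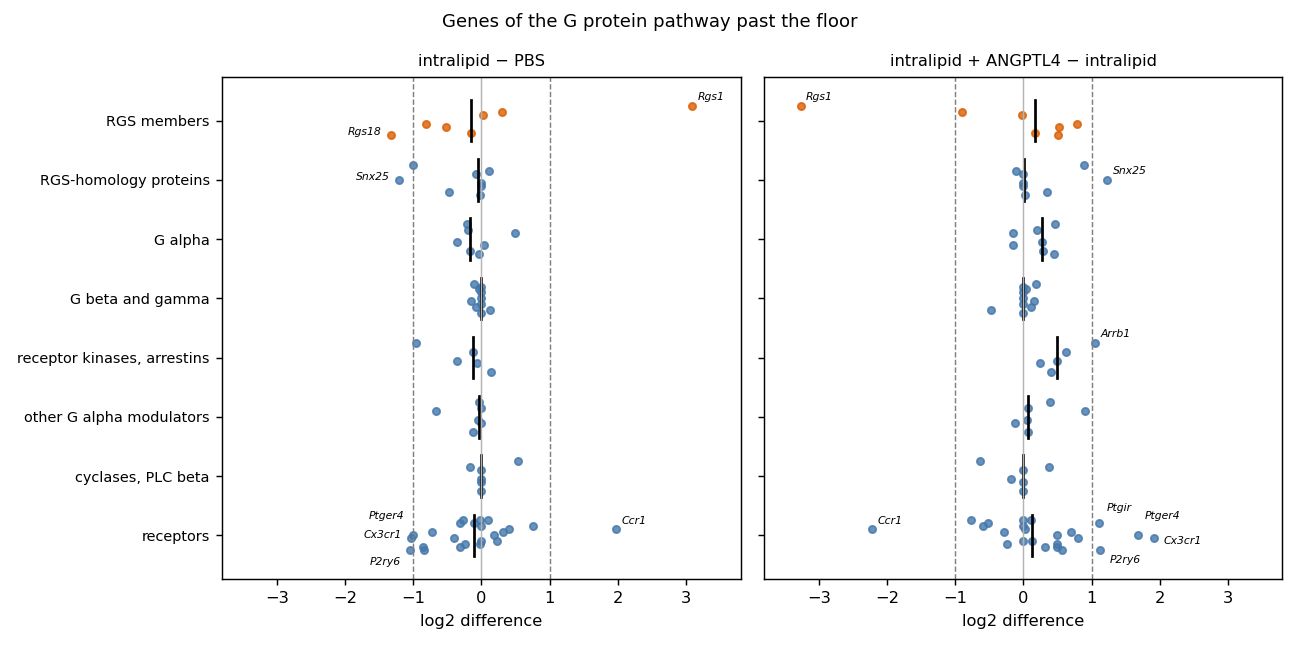
Log2 differences of the genes of the G protein pathway past the floor, 1 point per gene, with the list medians as black bars and 2-fold dashed; intralipid against PBS on the left, intralipid plus ANGPTL4 against intralipid on the right. Rgs1, on which the family was chosen, has the largest difference plotted in each panel, followed by Ccr1, and the G protein subunits lie within 2-fold.

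The arrays as a whole had median log2 values of 4.50 under PBS, 4.54 under intralipid and 4.54 under intralipid plus ANGPTL4. Angptl4, the deleted gene, was listed at 4.92 on each array, which does not check the genotype, since the place of its probes is not known. Among all genes, 49.3% had 1 identical value on the 3 arrays.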

How the data were processed

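The deposited table holds a log2 value for each probe set and array, which the authors made with RMA per the submitters' processing notes. Its version, chip definition and filters, and the scan dates, were not given in the sources used here. Per the labels' protocols, RNA with an integrity number over 8 was pooled from 3 samples and 100 ng was labelled. RMA summarises probes over arrays, which can shrink small differences.

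Values were used as deposited, without further normalization. Of 35556 probe sets, 21789 had 1 symbol, and the probe set with the highest mean stood for a gene. Gene identifiers of 19856 genes matched RefSeq. A gene was counted where either array reached the floor, and called at 2-fold (log2 difference of at least 1) with the higher array at the floor. The number of arrays, 1 per group, limits the precision, and no significance test was run. Python 3.11.15, limma 3.58.1 and R 4.3.3 were used.

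Members and lists were chosen with earlier results of these data known. Genes named are the members, the listed pathway genes called at 2-fold, the 4 with the highest mean per list, other RGS genes at the floor, and the 5 genes nearest to each member called at 2-fold, leaving out uncharacterised symbols; some others were named after their values were seen. A planned rank of levels among genes was left out, because probe sets differ in brightness. Proteins were not compared. The alternatives were thresholds of 1.5-fold and 3-fold, no floor, a floor at the 60th percentile, arrays centred on medians, quantile normalization, cyclic loess, the mean over probe sets of a gene, and promoter motifs on the strand of the gene only.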

Additional observations from a re-analysis of the deposited data

How the results depend on the processing

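Over the 8 alternatives, the log2 difference of Rgs1 ranged from 3.05 to 3.10 for intralipid against PBS and from -3.29 to -3.27 for ANGPTL4 against intralipid, and that of Rgs18 from -1.36 to -1.30 for intralipid against PBS. Rgs2 and Rgs18 stayed below PBS with ANGPTL4, at -0.63 to -0.60 and -0.88 to -0.82. Thresholds and floors cannot change a log2 difference, and each of these genes has 1 probe set. The ranges therefore come only from centring on medians, quantile normalization and cyclic loess. At 1.5-fold, 2 members were lower with intralipid than with PBS (1 at 2-fold), 1 was higher (0 at 2-fold) and 2 were lower (1 at 2-fold) with ANGPTL4 than with intralipid, and 2 were lower with ANGPTL4 than with PBS (0 at 2-fold). At 3-fold, 0 members were lower with intralipid (Rgs18 lost its call). Over all genes, 252 were higher and 133 lower with intralipid than with PBS at 2-fold, 509 and 560 at 1.5-fold, and 117 and 20 at 3-fold. For ANGPTL4 against intralipid, 254 and 231 became 830 and 498, and 58 and 102. For ANGPTL4 against PBS, 84 and 4 became 236 and 53, and 25 and 0. Without a floor the median of the G alpha subunits was 0.00 for ANGPTL4 against intralipid and 0.00 against PBS. With the higher floor the median of the receptors was 0.40 for ANGPTL4 against intralipid. The remaining share of Rgs1 was -7.37% and that of Rgs18 67.2% with quantile normalization. Of the 5 genes nearest to each, at least 4 were shared with the main setting under every alternative run, and the thresholds could not change these. On the strand of the gene only, 12.4% of all promoter windows held TGACG (20.8% on both strands), and the members' windows with each motif were the same in number. No paired analysis was possible because each group is 1 array. Signal near the floor limits Rgs3, Rgs16 and the intralipid value of Rgs14.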

Other observations

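Other coding genes near the run of RGS genes on chromosome 1 had patterns of their own. Ptgs2, the inducible cyclooxygenase, lies 3 coding genes beyond Rgs18 and had log2 values of 5.72 under PBS, 9.46 under intralipid and 7.09 under intralipid plus ANGPTL4. Pla2g4a, the phospholipase that releases arachidonic acid, lies between Brinp3 and Ptgs2 and was at 7.34, 7.20 and 7.46. On the other side, Ro60, an RNA-binding protein, was at 6.89, 6.06 and 6.80 and so lowest with intralipid. Cd14, the macrophage marker that serves as a co-receptor for lipopolysaccharide, was 4.29-fold higher with intralipid than with PBS, at 9.07, 11.17 and 10.34.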
